A study of Mus musculus domesticus with 6 samples.

Results

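The genes described here are 10 that handle iron in red cell precursors, chosen by symbol from 55359 genes in each table of RNA sequencing results. They fall into 4 roles: uptake (Tfrc, Slc11a2 and Steap3), storage and traffic to and from the store (Fth1, Ftl1, Pcbp1 and Ncoa4), sensing (Aco1 and Ireb2) and export (Slc40a1). All 10 symbols matched 1 Ensembl gene each, and all 10 passed the filter on low counts. The cells were BFU-E, the early progenitors committed to the red cell lineage, sorted from mouse fetal liver at E14.5. Both groups were homozygous for a floxed Exosc3 allele (Exosc3 fl/fl), which encodes a core subunit of the RNA-degrading exosome. One group was Cre- (3 libraries) and the other Cre+ (3 libraries), where Cre is driven by the blood-cell promoter of Vav1. The sort took GFP-positive, lineage-negative, Kit-positive cells with the lowest CD24 and CD71 staining, per the labels, and how a GFP gate was set in Cre- embryos is not given in the sources used here. CD71 is the protein product of Tfrc, so 1 of the 10 genes was itself used in the gate. All 6 samples carry the strain label Exosc3-floxed and Vav1-Cre and come from 3 litters with 2 samples each. The labels do not say whether a library holds 1 embryo or a pool, so p-values measure the spread between these libraries.

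Erythroid cells take up iron as transferrin bound to the transferrin receptor, which is internalised into endosomes where iron is released, reduced and moved into the cytosol. What is not used for heme is stored in ferritin, a shell of heavy and light chains. The iron regulatory proteins encoded by Aco1 and Ireb2 bind iron responsive elements, short RNA hairpins, when iron is scarce. Binding in a 5' UTR blocks translation, as for both ferritin chains and ferroportin, and binding in the 3' UTR of the Tfrc message protects it from decay. Of these 2 effects, RNA sequencing reads the second and not the first.

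The hairpins are shown because they are what joins the storage, export and uptake genes into 1 regulatory circuit. Transcripts of GENCODE release M21 (build GRCm38, not the build of the counts) were searched on the transcript strand for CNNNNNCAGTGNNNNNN with all 5 bases before the loop paired to the 5 after it, G-T pairs allowed. In each sequence the capital C is the unpaired bulge and the capitals CAGTG open the 6-base loop.
Fth1: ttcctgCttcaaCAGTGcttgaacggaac
Ftl1: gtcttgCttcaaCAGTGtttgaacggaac
Slc40a1: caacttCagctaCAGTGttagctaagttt
Tfrc site 1: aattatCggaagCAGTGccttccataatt
Tfrc site 2: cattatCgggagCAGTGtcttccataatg
Tfrc site 3: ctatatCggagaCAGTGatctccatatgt
Tfrc site 4: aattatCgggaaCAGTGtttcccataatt
The Fth1 site lies at bases 87 to 115 of transcript Fth1-201, the Ftl1 site at bases 78 to 106 of Ftl1-201 and the Slc40a1 site at bases 90 to 118 of Slc40a1-201, all in the 5' UTR. The 4 Tfrc sites begin at bases 3315, 3694, 3759 and 3806 of Tfrc-201, all in its 3' UTR. The pattern occurred in 60 of 50507 annotated 5' UTRs (0.119%) and in 202 of 44772 annotated 3' UTRs (0.451%), which differ in length. It was in 5 of the 9 Fth1 transcripts that the count tables list, 2 of 6 for Ftl1, 3 of 8 for Slc40a1 and 2 of 7 for Tfrc. Slc11a2 has a transcript known to carry such an element, but these letters were in none of its 8 transcripts. A match is a description of sequence and was not tested for binding.

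The libraries held between 89629949 and 124931215 expected counts, and the 10 genes had between 2678 and 60347 counts in each library. Genes with reads in a single library held a median of 108 reads in it, and reads were not counted by molecule. Exosc3, the targeted gene, stood in Cre+ libraries at 54.8% of its mean Cre- level (log2 fold change -0.87, edgeR adjusted p = 0.259), with all 3 Cre+ libraries below all 3 Cre- libraries. The gene total can include reads of recombined transcripts. Hepatocyte markers were near absent, with 7 of 10 at 0 counts in all 6 libraries. Of 12 macrophage markers, 8 were at 0 counts in all 6 libraries. The other macrophage markers, Csf1r among them, had counts, with a higher sum in every Cre- than in any Cre+ library. Their levels are given below.

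The comparison of Cre+ with Cre- asks how the iron genes of BFU-E differ when Exosc3 is targeted. None of the 10 genes passed an adjusted p of 0.05 over all 13117 genes tested (edgeR quasi-likelihood test, Benjamini-Hochberg), where 0.122% of all tested genes passed. None passed an unadjusted p of 0.05 in this edgeR fit either, against 8.23% of all tested genes. DESeq2, which called 3.45% of tested genes, and limma-voom, which called 0.152%, also called none of the 10. Nor did edgeR with replicate numbers as blocks (0.427% of tested genes called), with effective length offsets (0.0457%) or over genes with 1000 counts or more on average (1.01%). Before adjustment, some members fell under 0.05 in such other fits. DESeq2 gave unadjusted p = 0.014 for Ftl1, 0.019 for Fth1 and 0.025 for Slc11a2, and limma-voom 0.031 for Fth1. The blocked edgeR fit gave 0.020 for Ftl1 and 0.043 for Fth1, and the length offsets 0.016 for Aco1. The share of all tested genes under 0.05 in those fits is not given here. Log2 fold changes of the main edgeR fit ran from -0.32 for Ftl1 to 0.45 for Slc11a2 (median 0.02, beside -0.01 over all tested genes). They were positive for 5 genes and negative for 5, against 49.2% positive over all tested genes. Only Slc11a2 had counts whose groups did not overlap, 1 of 10 genes beside 15.2% of all tested genes (7.53% higher and 7.66% lower in Cre+). In these bulk libraries fewer cells of a type and less RNA per cell cannot be told apart.

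Tfrc (ENSMUSG00000022797), the transferrin receptor, was the most variable of the 10 in counts. Its level in CPM (counts relative to the scaled size of the library) was 251, 302 and 170.2 in the Cre- replicates 1, 2 and 3, and 214, 349 and 181 in the Cre+ replicates. Replicate 2 was the highest library of each group and replicate 3 the lowest, and the groups overlapped across almost their whole range. The means were 241 ± 66.5 and 248 ± 89.0 CPM (SD, n = 3 each) (log2 fold change 0.04, SE, the standard error, 0.26, edgeR adjusted p = 0.999). The 95% interval of the log2 fold change ran from -0.49 to 0.50 (limma-voom), which spans ratios from 0.713 to 1.42. Tfrc had -0.29 without Cre+ replicate 2 and 0.23 without Cre- replicate 2. Since CD71 staining set the gate, the cells were chosen for low Tfrc protein in both groups. The other genes named in the gate had groups that did not overlap. Kit, the stem cell factor receptor, was at 375, 385 and 426 CPM in Cre- and 334, 348 and 355 CPM in Cre+ libraries. Cd24a, a surface glycoprotein, was at 134, 124 and 72.7 CPM and 187, 150 and 142 CPM. Of all tested genes, 7.66% were lower and 7.53% higher in Cre+ without overlap. Neither Kit nor Cd24a passed over all genes (edgeR adjusted p = 0.614 and 0.558).

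Slc11a2 (ENSMUSG00000023030), which encodes the transporter DMT1 that carries iron out of the endosome, had the highest fold change of the 10. It stood at 53.8, 35.8 and 47.7 CPM in Cre- libraries and at 55.9, 69.4 and 61.7 CPM in Cre+ libraries. All 3 Cre+ libraries were above all 3 Cre- libraries, though the closest pair, replicate 1 of each group, differed by little. The means were 45.8 ± 9.19 and 62.3 ± 6.76 CPM (SD, n = 3 each), a ratio of 1.36. This ratio missed the threshold (log2 fold change 0.45, SE 0.20, edgeR adjusted p = 0.630), and its adjusted p lay between 0.257 and 0.832 over 14 alternatives. Its 95% interval ran from just under 0 (-0.0031) to 0.90 (limma-voom).

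Steap3 (ENSMUSG00000026389), the endosomal reductase that turns ferric into ferrous iron, had nearly equal means in the 2 groups. Its values were 119, 102 and 92.6 CPM in Cre- and 109.7, 125 and 75.9 CPM in Cre+ libraries. The Cre+ libraries held both the highest and the lowest value. It had a log2 fold change of -0.01 (SE 0.19, edgeR adjusted p = 0.999) and a 95% interval from -0.45 to 0.37 (limma-voom).

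**Figure D1:**
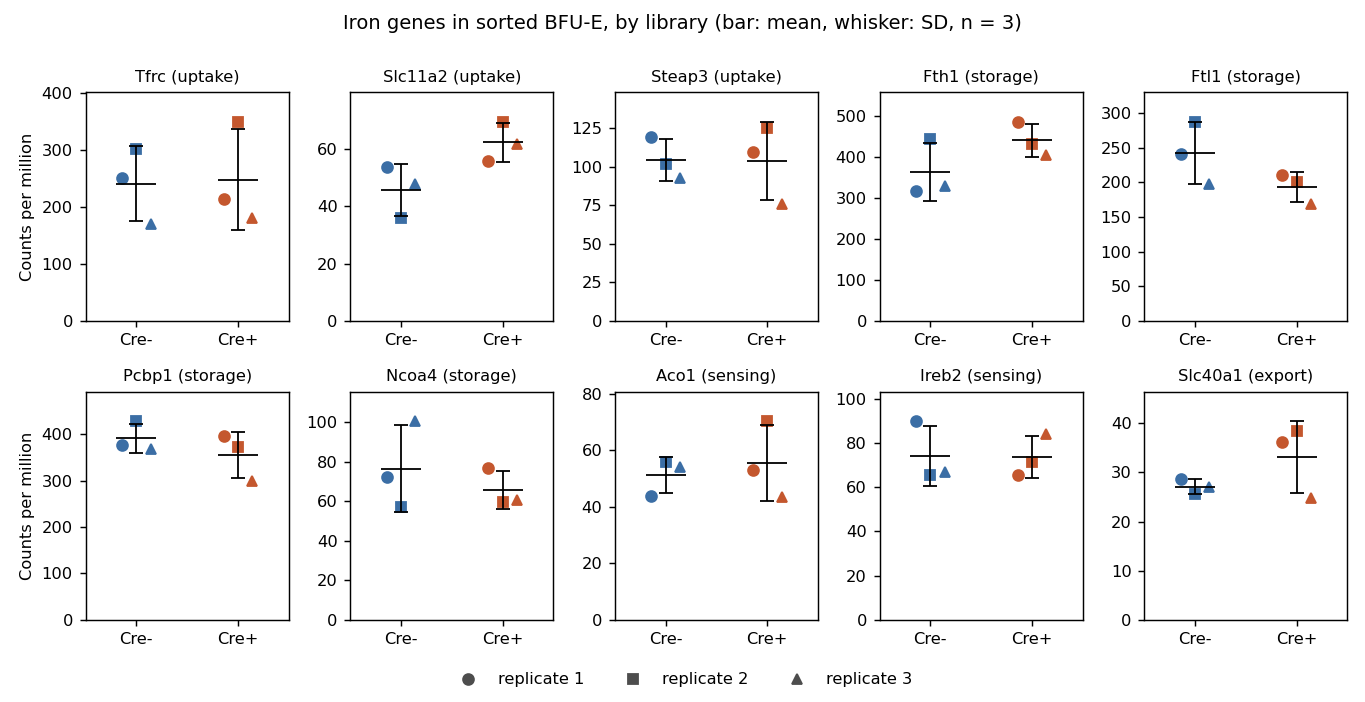
Each panel plots the CPM of 1 iron gene in the 3 Cre- (blue) and 3 Cre+ (orange) libraries, with marker shape for the replicate number, a bar for the mean and a whisker for the SD. Slc11a2 is the panel in which the 2 groups do not overlap, at 35.8 to 53.8 CPM in Cre- and 55.9 to 69.4 CPM in Cre+ libraries.

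The ferritin chains leaned in opposite directions. Fth1 (ENSMUSG00000024661) encodes the heavy chain, which oxidises iron for storage. It measured 317, 446 and 330.0 CPM in Cre- libraries and 486, 432 and 406 CPM in Cre+ libraries, and Cre- replicate 2 lay within the Cre+ range. Fth1 had a log2 fold change of 0.28 (SE 0.14, edgeR adjusted p = 0.685), and its 95% interval, not adjusted for the number of genes, ran from 0.03 to 0.56 (limma-voom). Ftl1 (ENSMUSG00000050708) encodes the light chain, which helps form the mineral core. It measured 242, 287 and 197 CPM in Cre- and 211, 200.1 and 168 CPM in Cre+ libraries, with Cre- replicate 3 inside the Cre+ range. Ftl1 had a log2 fold change of -0.32 (SE 0.15, edgeR adjusted p = 0.631), with an interval from -0.62 to 0.02 (limma-voom). Neither chain passed over all genes.

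The ratio of the 2 chains within a library, which no scaling between libraries can move, separated the groups. In TPM (abundance of transcripts, scaled for their length) there were 1.501, 1.92 and 2.02 Fth1 transcripts per Ftl1 transcript in Cre- libraries and 2.82, 2.599 and 2.86 in Cre+ libraries. Every Cre+ library was above every Cre- library, and the gap between the groups was wider than the spread within either. The means were 1.81 ± 0.276 and 2.76 ± 0.141 (SD, n = 3 each), and the ratio of the geometric means was 1.53. An exact two-sided permutation test gave p = 0.1, which is its minimum for this design, and 0.3 when adjusted over the 3 ratios tested. From counts the same ratio of geometric means was 1.52. Ftl1 shares reads with the near-identical pseudogene Ftl1-ps1, to which between 168 and 819 counts per library were assigned, against 17705 to 30077 for Ftl1. Adding the pseudogene to Ftl1 gave 1.54. Marker levels of other cell types also differed between these libraries. The 8 neutrophil and monocyte markers, among them Mpo, summed to between 536 and 1411 CPM in Cre- and between 213 and 488 CPM in Cre+ libraries. Of the 5 tested, 3 were lower without overlap, beside 7.66% of all tested genes, and S100a8, S100a9 and Ly6c2 were at 0 in all libraries. Macrophage markers summed to between 16.7 and 35.2 CPM and between 0.468 and 4.64 CPM, with Csf1r the largest part in Cre- libraries and with Adgre1, C1qa, C1qc, Cd163, Vcam1, Cd5l, Marco and Timd4 at 0. The 10 later erythroid markers summed to between 404 and 642 CPM and between 518 and 683 CPM, with none at 0 in all libraries. Ermap gave most of that sum. Of the 7 tested, 1 was higher without overlap, beside 7.53% of all tested genes. The part of these cell types in the ferritin ratio was not tested.

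**Figure D2:**
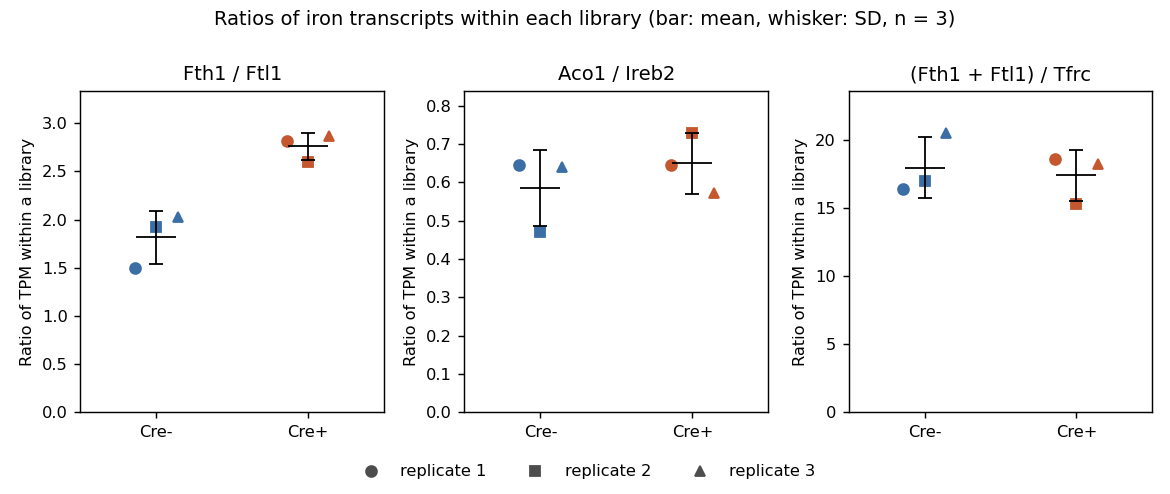
Each panel plots a ratio of TPM values within a library for the 3 Cre- (blue) and 3 Cre+ (orange) libraries, with bars for means and whiskers for the SD. The Fth1 to Ftl1 ratio runs from 1.501 to 2.02 in Cre- and from 2.599 to 2.86 in Cre+ libraries, while the other 2 ratios overlap.

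The 2 proteins that load and empty the store showed no such order. Pcbp1 (ENSMUSG00000051695), a chaperone that delivers iron to ferritin, was the steadiest gene of the 10, at 378, 428 and 369.5 CPM in Cre- and 396, 372 and 300.3 CPM in Cre+ libraries. Cre+ replicate 3 was the only library below the Cre- range. Pcbp1 had a log2 fold change of -0.14 (SE 0.12, edgeR adjusted p = 0.918), and the 95% interval from -0.38 to 0.10 (limma-voom) was the narrowest of the 10. Ncoa4 (ENSMUSG00000056234), the receptor that carries ferritin to the lysosome for iron release, stood at 72.3, 57.0 and 100.5 CPM in Cre- and 76.7, 59.8 and 60.5 CPM in Cre+ libraries. Cre- replicate 3 was above the other 5 libraries, and without it the log2 fold change of -0.22 became 0.02. It did not pass with all libraries (edgeR adjusted p = 0.944).

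Storage relative to uptake overlapped between the groups. Ferritin, as the sum of Fth1 and Ftl1, stood at 16.4, 17.02 and 20.5 TPM per TPM of Tfrc in Cre- libraries and at 18.7, 15.3 and 18.3 in Cre+ libraries. The means were 18.0 ± 2.23 and 17.4 ± 1.84 (SD, n = 3 each; exact permutation p = 0.9, adjusted over the 3 ratios 0.9). Its log2 difference was -0.05 in TPM and 0.05 in counts.

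The 2 sensors had overlapping counts in the 2 groups, and they differed between libraries in the lengths of the transcripts that the reads were assigned to. Aco1 (ENSMUSG00000028405) encodes IRP1, which serves as cytosolic aconitase when it holds an iron-sulfur cluster. It measured 43.97, 55.8 and 53.9 CPM in Cre- and 52.9, 70.3 and 43.6 CPM in Cre+ libraries (log2 fold change 0.12, SE 0.22, edgeR adjusted p = 0.993), with the groups overlapping. Its log2 fold change was -0.09 without Cre+ replicate 2, its highest library, and 0.26 without Cre+ replicate 3. In TPM the same gene measured 14.1, 19.0 and 17.9 in Cre- and 32.7, 22.3 and 29.9 in Cre+ libraries. These did not overlap (exact permutation p = 0.1, the smallest possible), and it was the 1 of 10 genes without overlap in TPM, beside 13.5% of all tested genes. The abundance-weighted mean transcript length was 3832, 3621 and 3832 bases in Cre- and 2091, 3832 and 1952 bases in Cre+ libraries. The full coding transcript Aco1-201 has 3832 bases and the other 3 annotated transcripts have between 410 and 714, so the low lengths came with reads assigned to short transcripts in Cre+ replicates 1 and 3. With effective length offsets Aco1 had a log2 fold change of 0.77 and again missed the threshold (SE 0.26, edgeR adjusted p = 0.492).

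Ireb2 (ENSMUSG00000032293) encodes IRP2, which is destroyed when iron is plentiful. It measured 89.7, 65.5 and 66.7 CPM in Cre- and 65.7, 71.1 and 83.9 CPM in Cre+ libraries, a log2 fold change of -0.01 (SE 0.18, edgeR adjusted p = 0.999). The highest library was Cre- replicate 1, and the 95% interval ran from -0.38 to 0.41 (limma-voom). Its mean transcript length was 4936, 2148 and 3091 bases in Cre- and 1742, 2912 and 2118 bases in Cre+ libraries, and with effective length offsets its log2 fold change was 0.60 (edgeR adjusted p = 0.788). Per length, Ireb2 was above Aco1 in all 6 libraries. The Aco1 to Ireb2 ratio in TPM was 0.645, 0.471 and 0.639 in Cre- and 0.646, 0.729 and 0.572 in Cre+ libraries (exact permutation p = 0.4, adjusted over the 3 ratios 0.6), with overlapping groups.

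**Figure D3:**
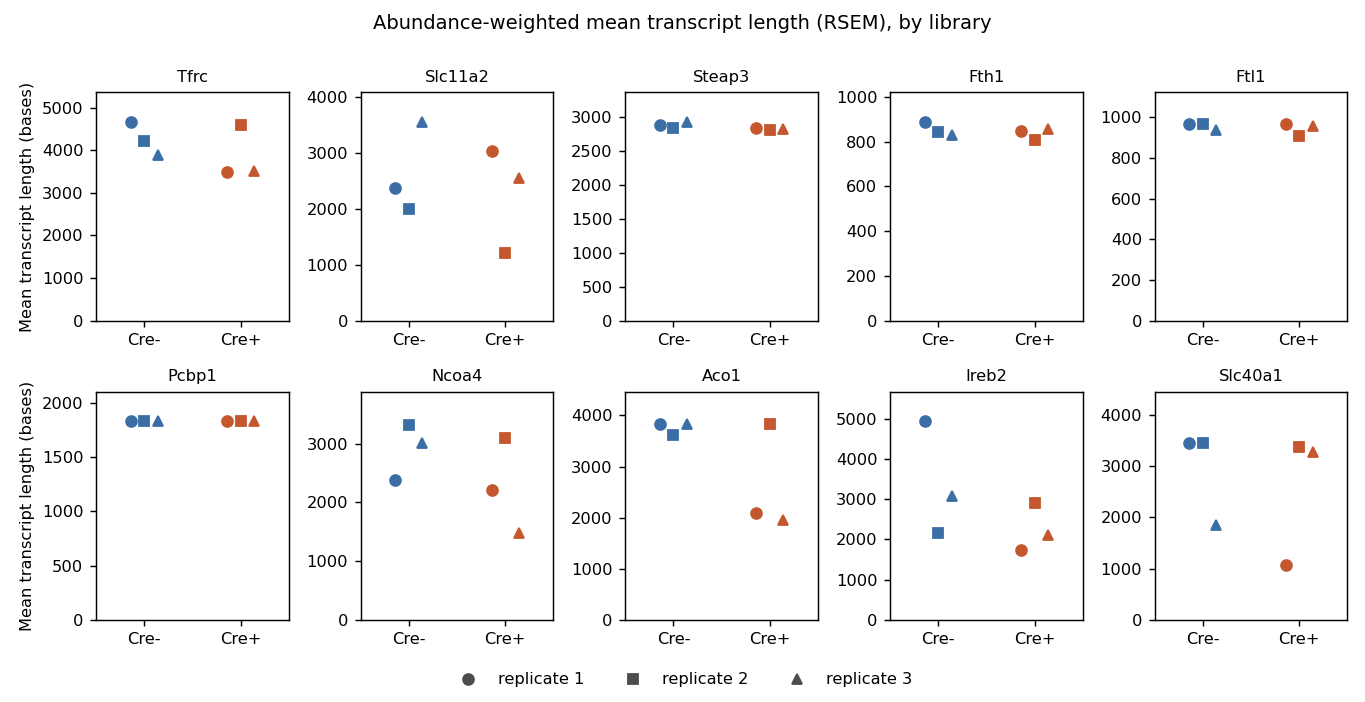
Each panel plots, for 1 iron gene, the mean length in bases of the transcripts that reads were assigned to, weighted by abundance, in the 3 Cre- (blue) and 3 Cre+ (orange) libraries. Fth1, Ftl1, Steap3 and the single-transcript Pcbp1 keep nearly 1 length, while Aco1, Ireb2, Slc11a2, Ncoa4 and Slc40a1 vary between libraries of the same group. Tfrc lies between them, from 3488 to 4658 bases.

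Slc40a1 (ENSMUSG00000025993), ferroportin, the cell's iron exporter, was the lowest of the 10 in TPM. It stood at 28.6, 25.5 and 27.0 CPM in Cre- and 36.1, 38.4 and 24.7 CPM in Cre+ libraries. The Cre- libraries lay close together, while Cre+ replicate 3 was the lowest of all 6 and the other Cre+ libraries were the highest. Slc40a1 had a log2 fold change of 0.29 (SE 0.26, edgeR adjusted p = 0.927). In TPM Cre+ replicate 1 stood apart at 49.3, against 9.15 to 20.3 in the other 5 libraries, and its mean transcript length was 1078 bases there against 1858 to 3458. Without that library the difference in log2(TPM + 1) of 0.56 became -0.11. Ferroportin is abundant in macrophages. Of 12 macrophage markers 8 had 0 counts in all 6 libraries, as given above with their summed levels, while Csf1r stood at 28.5, 15.8 and 31.5 CPM in Cre- and 2.59, 2.95 and 0 CPM in Cre+ libraries, and Cd68, C1qb and Mrc1 had counts in 1 or more libraries. The part of such cells in the Slc40a1 values was not tested.

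Transcript length moved the TPM of other members as well. Slc11a2 measured 29.2, 23.6 and 17.2 TPM in Cre- and 22.5, 84.3 and 30.7 TPM in Cre+ libraries, so the groups that were apart in CPM overlapped in TPM. Its mean length was 1217 bases in Cre+ replicate 2, the library with 84.3 TPM, and 2006 to 3556 bases in the others. Ncoa4 had a mean length of 1474 bases in Cre+ replicate 3 and of 2216 to 3317 bases in the others. Over the 6 libraries the longest mean length was 3.21 times the shortest for Slc40a1, 2.92 times for Slc11a2 and 2.83 times for Ireb2, against 1.10 times for Fth1 and 1.06 times for Ftl1. For Tfrc it was 1.34 times the shortest. With effective length offsets, edgeR gave log2 fold changes of 1.00 for Slc11a2, 0.92 for Slc40a1 and 0.32 for Ncoa4, against 0.45, 0.29 and -0.22 without them, and no member passed either way. The mean lengths of the 2 groups overlapped for all 10 genes.

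Compared per length, Fth1, Ftl1 and Pcbp1 were the most abundant of the 10, and Ncoa4 was below Tfrc and Steap3 on average. The mean over all 6 libraries was 877 ± 151 TPM for Fth1, 393 ± 69.1 TPM for Ftl1, 279 ± 31.3 TPM for Pcbp1 and 72.7 ± 14.0 TPM for Tfrc (SD, n = 6). Each of these 4 genes was above the next in 6 of 6 libraries, Tfrc being above Steap3 (46.3 ± 7.99 TPM). Below Steap3 the order did not hold within libraries. Steap3 was above Ncoa4 (38.5 ± 13.8 TPM) in 4 of 6 libraries, Ncoa4 above Ireb2 (37.3 ± 12.4 TPM) in 3, Ireb2 above Slc11a2 (34.6 ± 24.8 TPM) in 4, Slc11a2 above Aco1 (22.6 ± 7.24 TPM) in 4, and Aco1 above Slc40a1 (18.7 ± 15.5 TPM) in 4. These neighbours do not differ beyond their spread.

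Read by the hairpins shown above, the members did not move as 1 group. Of the 3 genes with the element in the 5' UTR, Fth1 and Slc40a1 had positive log2 fold changes (0.28 and 0.29) and Ftl1 a negative value (-0.32). Tfrc, with 4 elements in the 3' UTR, had a log2 fold change of 0.04. None of these 4 passed over all genes. The erythroid heme synthesis gene Alas2, whose 5' UTR also held the pattern, had too few counts to be tested.

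Other genes of iron handling were counted from a list of 83, of which 66 had enough counts to be tested. None passed over all genes (edgeR), 4 had an unadjusted p under 0.05 beside 8.23% of all tested genes, and DESeq2 and limma-voom called none. Positive log2 fold changes numbered 41 and negative ones 25, beside 49.2% positive over all tested genes, and the median was 0.08, beside -0.01 over all tested genes. The groups did not overlap for 8 of the 66, 5 higher and 3 lower, beside 15.2% of all tested genes. Of the 17 untested genes 12 had 0 counts in all libraries, among them Hamp, the hormone hepcidin, the reductases Steap1, Steap2 and Steap4, and the ferroxidases Heph and Cp.

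By role, the genes with the smallest p were these. Among 27 tested genes of mitochondrial iron import and iron-sulfur clusters, with a median log2 fold change of 0.10, Iba57, a late cluster assembly factor, stood at 22.7, 12.8 and 26.1 CPM in Cre- and 38.1, 34.5 and 32.5 CPM in Cre+ libraries (log2 fold change 0.77, edgeR adjusted p = 0.535). Ciao2b, of the cytosolic cluster targeting complex, stood at 18.5, 15.9 and 29.6 CPM and 7.05, 13.5 and 12.1 CPM (log2 fold change -0.97, edgeR adjusted p = 0.570). Both had groups that did not overlap. Among 13 genes of sensing and regulation (median -0.08), Nfe2l2, the oxidative stress factor NRF2 that drives ferritin transcription among other targets, stood at 104, 107 and 82.9 CPM in Cre- and 130.2 ± 1.76 CPM in Cre+ libraries (SD, n = 3), above every Cre- library (log2 fold change 0.41, SE 0.14, edgeR adjusted p = 0.402). Zfp36l2, an RNA decay factor, had a log2 fold change of -0.23. Among 9 other chaperone and lysosomal genes (median 0.08), Pcbp4, a relative of Pcbp1, stood at 20.0, 16.5 and 13.2 CPM in Cre- and 6.73, 10.6 and 7.30 CPM in Cre+ libraries (log2 fold change -1.01, edgeR adjusted p = 0.546). Bach1, a heme-sensing repressor counted in the same group, whose targets include the ferritin genes, stood at 57.5, 48.8 and 61.1 CPM in Cre- and 21.1, 36.8 and 49.8 CPM in Cre+ libraries, with Cre+ replicate 3 above the lowest Cre- library (log2 fold change -0.64, SE 0.30, edgeR adjusted p = 0.639). Among 11 genes of the transferrin cycle and import (median 0.09), Slc39a8, a metal importer, had a log2 fold change of 0.66 and Vps35, of the retromer that returns endosomal cargo, 0.18. Among 6 genes of heme recycling and export (median 0.22), Blvrb, a biliverdin reductase, had 0.35 and Hmox2, the constitutive heme oxygenase, -0.27. None of these last 4, nor Zfp36l2, passed.

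**Figure D4:**
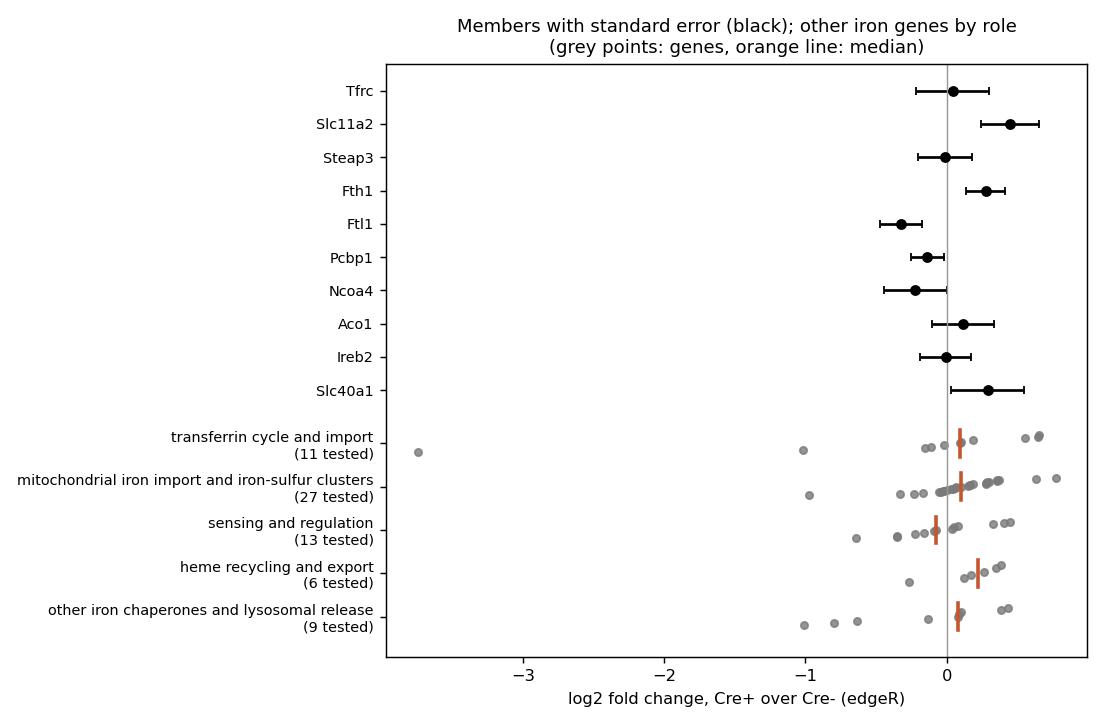
Log2 fold changes of Cre+ over Cre- (edgeR) are plotted for the 10 iron genes, with the standard error as whisker, and below them for the 66 other tested iron genes by role, with a line at each median. The members lie between -0.32 and 0.45, and the medians of the 5 other roles between -0.08 and 0.22.

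The genes whose pattern over the 6 libraries was most like that of Tfrc were sought among 8337 others with a mean of at least 1000 counts. Highest were H3f3b, a histone H3.3 gene (Pearson r = 0.99 of log2 CPM), Snrpd3, a core spliceosome protein gene (0.98), and Nop53, a ribosome biogenesis factor gene (0.98), and 51 genes had r above 0.9. The values describe 6 libraries, each gene's CPM coming from the same 6 totals as that of Tfrc. H3f3b, like Tfrc, was highest in replicate 2 of each group, at 383 CPM in Cre- and 397 CPM in Cre+ libraries.

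**Figure D5:**
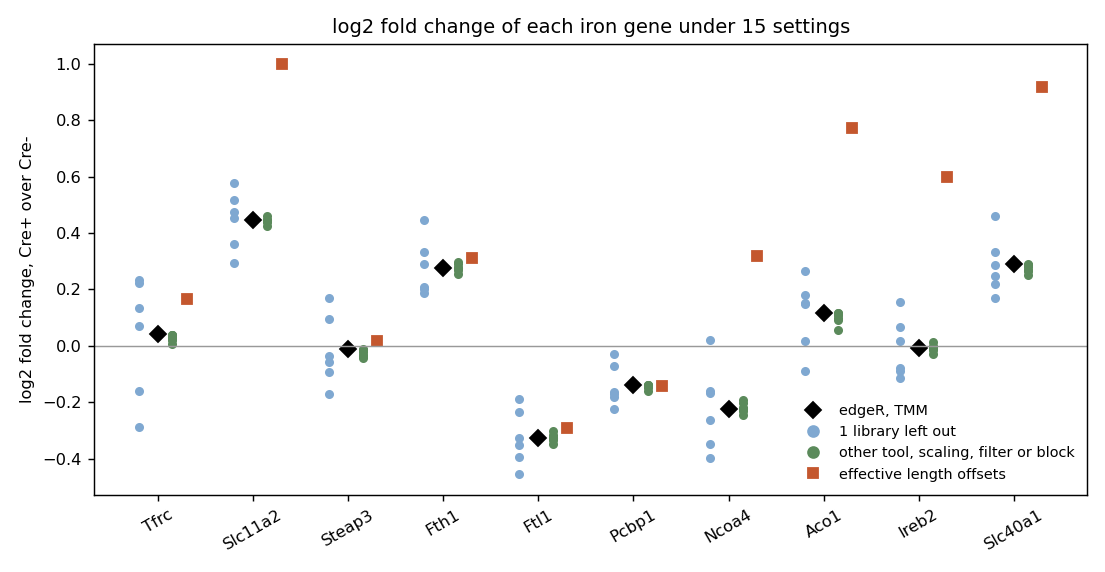
The log2 fold change of each iron gene is plotted under the edgeR fit (black), with 1 library left out (blue), under another tool, scaling, filter or the replicate block (green) and with effective length offsets (orange). Fth1, Slc11a2 and Slc40a1 stay above 0 and Ftl1 and Pcbp1 below 0 in all 15 settings, while length offsets take Aco1 to 0.77, Slc40a1 to 0.92 and Slc11a2 to 1.00.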

How the data were processed

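Total RNA of sorted cells (Qiagen RNeasy Micro) went into Takara SMARTer stranded libraries, per the labels. The tools STAR 2.5.3a and RSEM 1.3.0 and the build GRCm39 come from the submitters' processing notes. Which annotation and strand option were used is not given in the sources used here. Per the file headers, a deposited table gives an RSEM expected count per gene, TPM and FPKM scaled for length and library total, and mean and effective transcript lengths. FPKM as deposited was not used. Symbols were matched for 52081 of 55359 identifiers. Expected counts were rounded (2.64% of deposited values were not whole), filtered with edgeR's filterByExpr, which left 13117 genes, scaled by TMM (factors 0.988 to 1.017) and tested with edgeR 4.0.16 (glmQLFTest, R 4.3.3) and p-values were adjusted by Benjamini-Hochberg over these genes. Standard errors are fold changes (log2) over the root of F. Intervals are from limma-voom (limma 3.58.1), and DESeq2 1.42.0 was an alternative. The TPM differences use log2(TPM + 1), with exact two-sided permutation tests. The tests were also run on simulated counts with planted changes larger than those of the members and no litter effect. That run does not cover changes of the size seen in the members. All 10 members were named, with the 2 genes of smallest p from each role of the wider list. Of the wider list, values are given for the genes named by this rule and a few at 0. The members and lists were chosen with earlier results of these data known. Alternatives covered scaling, filters, tools, length offsets (effective lengths under 1 base set to 1), the replicate number as a block, each library left out and, chosen after seeing the data, a mean of at least 1000 counts and the Ftl1-ps1 pseudogene.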

Additional observations from a re-analysis of the deposited data

How the results depend on the processing

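No member and no gene of the wider iron list was called under any of the 14 alternatives run. Of all tested genes, 16 were called by edgeR, 453 by DESeq2, 39 without a filter on low counts, 56 with the replicate block, 6 with effective length offsets, 84 with a minimum mean of 1000 counts, and 7 to 16 with 1 library left out, lowest without Cre+ replicate 2. The Fth1 to Ftl1 log2 ratio difference of 0.62 ran from 0.48 to 0.70 with 1 library left out. Small values changed sign. The Ireb2 log2 fold change of -0.01 was 0.014 by limma-voom, 0.00074 with the replicate block and 0.60 with effective length offsets, and Ncoa4 (0.32) and Steap3 (0.019) also turned positive with those offsets. The ferritin to Tfrc log2 ratio difference of -0.05 was 0.053 in counts. Leaving out 1 library, log2 fold changes ran from -0.29 to 0.23 for Tfrc, -0.17 to 0.17 for Steap3, -0.40 to 0.021 for Ncoa4, -0.087 to 0.26 for Aco1 and -0.11 to 0.15 for Ireb2, log2 TPM differences from -0.058 to 0.60 for Ncoa4, -0.11 to 1.03 for Slc40a1 and -0.19 to 0.16 for Steap3, and the ferritin to Tfrc difference from -0.11 to 0.054. The other 5 members kept their sign, with log2 fold changes from 0.19 (without Cre- replicate 1) to 0.45 (without Cre- replicate 2) for Fth1, -0.45 (without Cre- 3) to -0.19 (without Cre- 2) for Ftl1, -0.22 (without Cre+ 1) to -0.030 (without Cre+ 3) for Pcbp1, 0.29 (without Cre- 2) to 0.58 (without Cre- 1) for Slc11a2 and 0.17 (without Cre+ 2) to 0.46 (without Cre+ 3) for Slc40a1. The cause was not tested. Same-numbered libraries correlated at 0.02, 0.06 and 0.10 in their deviations from the group means, none above 0.1. Cre- and Cre+ libraries with different numbers correlated lower, from -0.075 to 0.016. The deviations of each library thus correlated highest with those of its same-numbered partner, though weakly. Deviations within a group cancel out, so the lower values at different numbers follow in part from the higher ones. The sources used here do not tie replicate numbers to litters, and the main fit did not pair them. Whether same-numbered libraries share a litter was not tested. The replicate block changed no call of a member. With it the SE of the log2 fold change fell from 0.26 to 0.11 for Tfrc and fell less for most other members. It rose slightly for Slc11a2, Slc40a1 and Ireb2. The SEs and intervals given for the members come from fits without this block. With 3 libraries a group, intervals of the members spanned changes of up to 1.86-fold.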
